A study of Mus musculus with 18 samples.

Results

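The genes of major histocompatibility complex (MHC) class II antigen presentation were followed in mouse hippocampus through 6 genes chosen by name: H2-Aa, H2-Ab1, H2-Eb1, H2-DMa, Cd74 and Ciita. Every probe set that the platform annotation assigns to one of these symbols was taken, which gave 14 of the 45101 probe sets on the array and 6 of its 18193 named genes. H2-Aa had 4 probe sets, H2-Ab1 and Ciita 3 each, H2-DMa 2, and H2-Eb1 and Cd74 1 each. Of these, 8 probe sets covering 5 genes were bright enough to be tested, and all 3 probe sets of Ciita fell below the filter on dim signals.

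The study profiled 18 hippocampus samples, 1 array of biotin-labelled total RNA per sample, and asked how hippocampi of animals with poor spatial memory differ from those of animals with good spatial memory. Of the samples, 6 were aged and labelled as impaired in spatial memory, 6 were aged and labelled as unimpaired, and 6 were young and also labelled as unimpaired. Age and memory state therefore differ together between aged impaired and young samples. The sources used here give no strain, genotype, sex or age. Separate animals are not stated in the labels, so p-values only set group differences against the spread of these samples, which may be technical in part. Values are log2(signal + 16), with every array brought to a trimmed mean of 500. In 5 arrays, aged unimpaired replicates 3, 4 and 5, aged impaired replicate 5 and young replicate 6, the signal of choroid plexus genes stood apart as low. A signal of 0 would read 4.00 on this scale, and the difference of a dim gene is understated by it. The median deposited signal lay between 23.5 and 30.5 over the arrays.

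MHC class II molecules carry peptides from engulfed material to the cell surface and show them to CD4+ T cells. Each is a pair of an alpha and a beta chain, which the invariant chain Cd74 escorts from the endoplasmic reticulum to acidic compartments, where H2-DM helps peptide to replace the remnant of Cd74. The coactivator Ciita switches on these genes together by joining factors bound to the X and Y boxes of their promoters. In healthy brain tissue most cells lack class II. It is found mainly on macrophages and dendritic cells of the meninges, perivascular spaces and choroid plexus, while resting microglia carry little of it.

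The X and Y boxes are visible in the promoter sequences of the 2 chains for which the RefSeq-derived promoter table of build GRCm38.p6 could be read plainly. The windows run from 250 bases before to 50 bases after the annotated start. Capitals mark the letters GCAAC, part of the X box of many class II promoters, and ATTGG, the core of the Y box. The H2-Aa window is chr17:34287774-34288073 on the minus strand, and the H2-Eb1 window is chr17:34305617-34305916 on the plus strand.
H2-Aa: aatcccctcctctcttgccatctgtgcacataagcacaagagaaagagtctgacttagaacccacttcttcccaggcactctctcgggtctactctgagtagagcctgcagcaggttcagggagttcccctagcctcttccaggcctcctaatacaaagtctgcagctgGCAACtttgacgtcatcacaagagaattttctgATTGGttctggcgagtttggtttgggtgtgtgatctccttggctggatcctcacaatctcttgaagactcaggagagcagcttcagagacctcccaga
H2-Eb1: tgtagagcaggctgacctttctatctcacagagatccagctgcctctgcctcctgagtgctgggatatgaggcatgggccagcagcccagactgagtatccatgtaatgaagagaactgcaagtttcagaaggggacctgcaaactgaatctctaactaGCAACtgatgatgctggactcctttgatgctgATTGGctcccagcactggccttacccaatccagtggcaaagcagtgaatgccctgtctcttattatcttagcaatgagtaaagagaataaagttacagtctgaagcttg
In H2-Aa, GCAAC began 81 bases before the start and ATTGG followed 33 bases after it. In H2-Eb1, GCAAC began 91 bases before the start and ATTGG followed 32 bases after it. Among 32851 promoter windows of this length, 37.41% held ATTGG on either strand, 35.21% held GCAAC on either strand, and 1.239% held GCAAC followed by ATTGG at 20 to 45 bases on either strand. Of 5 other class II chains with an entry, H2-Eb2, H2-Oa and H2-Ob also held this arrangement, while the windows of H2-DMb1 and H2-DMb2 held ATTGG but not GCAAC. The 2 entries of H2-DMa did not hold it either. The first of them shares 276 bases with an entry of the neighbouring gene Brd2 on the other strand, so it was not read as the promoter of H2-DMa. The second entry was not read as its promoter either, and whether H2-DMa holds this arrangement was not tested. A match of letters is a description and shows no binding.

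None of the class II genes was called between any groups. In limma, 0 of the 8 tested probe sets passed a Benjamini-Hochberg adjusted p under 0.05 in aged impaired against aged unimpaired, in aged unimpaired against young, in aged impaired against young, or in both aged groups together against young. None had an unadjusted p under 0.05. Of all 27022 probe sets tested, 2185, 2214, 4274 and 3632 had one in these comparisons, in this order, so 0 of 8 is not read as a result. Over all 27022 probe sets tested, the shares called in these comparisons were 0.0111%, 0.137%, 1.63% and 0.947%, so 0 of 8 lies near the background in each. Groups overlapped for all 14 member probe sets in the first 3 comparisons, while they did not overlap for 0.525%, 0.766% and 2.01% of the probe sets tested. The 4 comparisons share samples and are not independent of each other. In bulk tissue, fewer cells of a type and less RNA per cell cannot be told apart, and neither can their opposites.

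The alpha chain H2-Aa forms the I-A molecule with H2-Ab1. On its brightest probe set (1435290_x_at), the lowest, median and highest values were 7.81, 8.18 and 8.75 in young, 6.87, 7.83 and 8.99 in aged unimpaired and 7.41, 8.46 and 8.72 in aged impaired samples. The groups overlapped throughout, and both the lowest and the highest of all 18 values came from aged unimpaired samples, replicates 4 and 6. The difference was 0.33 ± 0.31 (SE, n = 6 per group, limma adjusted p = 0.813) for aged impaired against aged unimpaired. Against young it was -0.30 ± 0.31 (adjusted p = 0.853) for aged unimpaired and 0.03 ± 0.31 (adjusted p = 0.978) for aged impaired. The 95% interval of the last difference, -0.63 to 0.69, spans 0.65-fold to 1.61-fold, so it leaves room for a change in either direction. The interval is not a limit of detection, and how large a change would have been called was not tested.

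The other probe sets of H2-Aa did not follow the brightest one closely. Aged impaired minus young was 0.64 ± 0.50 on 1438858_x_at and 0.24 ± 0.27 on 1452431_s_at (limma adjusted p = 0.578 and 0.717). Aged unimpaired minus young was 0.38 ± 0.50 and -0.09 ± 0.27 on them (adjusted p = 0.899 and 0.964). Over the 18 samples these probe sets correlated with the brightest one at r = 0.628 and 0.686, and the dim 1443783_x_at, which was not tested, at 0.308. The x and s suffixes are given where probes can also match other transcripts, so part of this signal may not be H2-Aa.

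The beta chain H2-Ab1, read on 1450648_s_at, had lowest, median and highest values of 7.07, 7.51 and 7.96 in young samples. They were 6.29, 7.06 and 8.04 in aged unimpaired and 6.79, 7.37 and 8.15 in aged impaired samples. The young samples lay inside the range of each aged group, with aged unimpaired replicates 2 and 4 the lowest of all. The aged unimpaired mean differed from the young one by -0.51 ± 0.29 (adjusted p = 0.676), the largest gap of an aged group from young on a brightest probe set. Aged impaired samples differed by 0.45 ± 0.29 from aged unimpaired ones (adjusted p = 0.731) and by -0.06 ± 0.29 from young ones (adjusted p = 0.947). On the second tested probe set, 1451721_a_at, these 3 differences were -0.02, 0.15 and 0.13, each with an SE of 0.29. It correlated with the first at r = 0.385, and the dim 1425477_x_at did so at 0.747.

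H2-Eb1 is the beta chain of the second class II molecule, I-E, and pairs with H2-Ea. Its single probe set (1417025_at) ran from 6.80 over a median of 7.19 to 7.48 in young samples, from 6.00 over 6.89 to 7.98 in aged unimpaired and from 5.14 over 6.99 to 7.75 in aged impaired samples. Young samples were packed within 0.68 of each other, while the aged impaired samples spanned 2.61, with replicate 5 at the bottom. The SD was 0.23 in young, 0.72 in aged unimpaired and 0.91 in aged impaired samples (n = 6 each). Whether the spread itself differed between groups was not tested. The mean differences were -0.29 ± 0.36 for aged unimpaired against young, -0.35 ± 0.36 for aged impaired against young and -0.06 ± 0.36 between the aged groups (adjusted p = 0.890, 0.689 and 0.980). Without aged impaired replicate 5 the last difference was 0.28 and was still not called.

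H2-Ea, the partner of H2-Eb1, is disrupted in several common laboratory strains. Its probe set did not pass the filter and lay between 4.92 and 6.05 over the 3 groups, with medians of 5.72 in young, 5.50 in aged unimpaired and 5.27 in aged impaired samples. The sources used here do not name the strain. Of 6 further class II chains and chaperones listed, 5 were on the array and only H2-DMb2, a beta chain of H2-DM, passed the filter. Its values were 6.40 on average in young, 5.91 in aged unimpaired and 5.89 in aged impaired samples, and its difference between aged impaired and young samples, -0.51 ± 0.21, was not called (adjusted p = 0.248). H2-Oa and H2-Ob, the chains of the H2-DM inhibitor H2-O, and H2-Eb2 were also below the filter. For H2-Oa the medians in young, aged unimpaired and aged impaired samples were 5.14, 5.79 and 6.39. In the same order they were 4.38, 5.44 and 4.69 for H2-Ob and 5.30, 4.78 and 4.91 for H2-Eb2.

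Cd74, the invariant chain, had lowest, median and highest values of 8.15, 8.42 and 8.78 in young samples. They were 7.62, 8.14 and 8.95 in aged unimpaired and 7.66, 8.38 and 9.01 in aged impaired samples. The young values fell wholly inside the range of either aged group. The differences were 0.12 ± 0.22 for aged impaired against aged unimpaired, -0.22 ± 0.22 for aged unimpaired against young and -0.10 ± 0.22 for aged impaired against young (adjusted p = 0.920, 0.853 and 0.877). The interval of the last one, -0.57 to 0.37, spans 0.67-fold to 1.30-fold.

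H2-DMa, the alpha chain of the peptide exchanger, was the steadiest member. Its values started at 8.54 in young samples and spanned 0.46 with a median of 8.87. They were 8.59 to 9.24 in aged unimpaired with a median of 8.77, and 8.55 to 8.97 in aged impaired with a median of 8.73. The 3 groups overlapped over most of this range. The differences were -0.11 ± 0.11 between the aged groups and 0.00 ± 0.11 and -0.10 ± 0.11 for aged unimpaired and aged impaired against young (adjusted p = 0.840, 0.996 and 0.713). Here the 95% interval for aged impaired against young, -0.34 to 0.13, is narrow, from 0.79-fold to 1.10-fold. A dim second probe set, 1459872_x_at, lay near the floor and correlated with the first at r = -0.461.

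Ciita, the master coactivator, was dim on every probe set. The brightest, 1421210_at, ran from 4.35 over a median of 5.71 to 6.26 in young, from 4.12 over 5.33 to 6.16 in aged unimpaired and from 4.32 over 5.75 to 6.12 in aged impaired samples. Each group thus held samples close to a signal of 0 and samples well above it. In the limma fit without a filter on dim signals, 0 of all 14 member probe sets were called, while 0.00444%, 0.0289%, 0.429% and 0.291% of 45037 probe sets were called in the same 4 comparisons. One member probe set, 1447075_at of Ciita, had an unadjusted p under 0.05 in that fit, between aged impaired and young samples and between both aged groups together and young samples. There, 5276 and 4721 of the 45037 probe sets had one, in this order, so a single member is not set apart. The probe set 1447075_at lay between 4.06 and 4.37 in young samples and between 4.06 and 5.70 in aged impaired samples. Its difference was 0.61 ± 0.22 with an adjusted p of 0.275 and an exact permutation p of 0.0476, 2-sided, and it was chosen after these values were seen. For both aged groups together it was 0.43 ± 0.19 (limma adjusted p = 0.447, exact permutation p = 0.0546). The third probe set, 1421211_a_at, had a difference of 0.12 ± 0.09, and 1421210_at one of -0.06 ± 0.39, so the 3 did not share a sign.

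**Figure D1:**
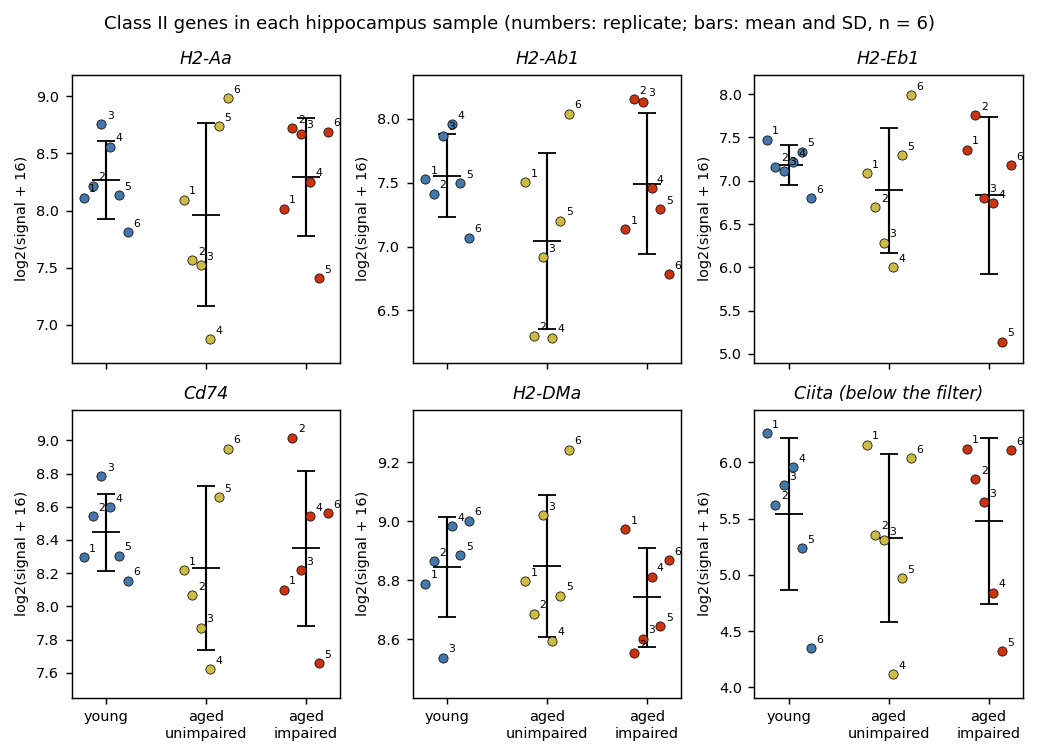
Values of the brightest probe set of each class II gene, as log2(signal + 16), in the 6 young, 6 aged unimpaired and 6 aged impaired samples; points are samples with their replicate number, and bars give the mean and SD. The groups overlap in every panel, and the young values of H2-Eb1 lie within 0.68 of each other while the aged impaired values span 2.61.

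The factors that bind class II promoters with Ciita were likewise not called. Of 12 tested genes of that list, 0 rose and 0 fell in any comparison, with a median difference of 0.01 between aged impaired and young samples against -0.01 over all probe sets. The lowest p there belonged to Nfya, a subunit of the Y box factor NF-Y (-0.27 ± 0.10, adjusted p = 0.187), and Irf8, a transcription factor of myeloid cells (0.34 ± 0.15, adjusted p = 0.272). Of 13 tested genes of interferon gamma signalling, the main inducer of Ciita outside dendritic and B cells, 0 passed in any comparison, with a median of 0.22 in aged impaired against young. Those of lowest p were Gbp2, a guanylate-binding protein (0.56 ± 0.20), Irgm1, an immunity GTPase (0.26 ± 0.09), and Cxcl10, a chemokine (0.95 ± 0.34), with adjusted p of 0.167, 0.167 and 0.170. Of 5 tested genes of co-stimulation, 0 passed. Icam1, an adhesion partner of T cells, had a difference of 0.92 ± 0.23 (adjusted p = 0.0567), and Cd86, a ligand of CD28, 0.68 ± 0.23 (adjusted p = 0.150). Over all probe sets tested, 0.0111% were called between the aged groups and 0.137% in aged unimpaired against young samples. In aged impaired and in both aged groups together against young samples, 1.63% and 0.947% were. The 0 calls of each of these lists thus lie near the background.

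Genes of antigen processing were called where the class II chains were not. Of 9 tested genes of class II peptide loading and turnover, 2 rose and 0 fell in aged impaired against young samples, where 1.03% of all probe sets rose. Ctss, the cathepsin that trims Cd74 inside the compartment, rose by 0.68 ± 0.13, or 1.61-fold (adjusted p = 0.0111). Ifi30, a thiol reductase that opens disulfide bonds of antigens, rose by 0.69 ± 0.17 (adjusted p = 0.0437). The remaining 7, among them Ctsd (0.36 ± 0.12, adjusted p = 0.125) and Lgmn (0.26 ± 0.11, adjusted p = 0.248), both lysosomal proteases, were not called. In aged unimpaired against young samples 0 of 9 were called, with Ctss at 0.60 ± 0.13 (adjusted p = 0.0808), and 0.137% of all probe sets were. In both aged groups together against young, Ctss alone was called (0.64 ± 0.11, limma adjusted p = 0.00833), where 0.947% of all probe sets were. Between the aged groups 0 of 9 were called, against 0.0111% of all probe sets. In aged impaired against young samples, the call of Ctss held under all 21 alternatives run. That of Ifi30 ended under 12 of 21, with a highest adjusted p of 0.103 without aged impaired replicate 6.

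The class I pathway, which shows peptides from inside the cell to CD8+ T cells, had 3 of 10 tested genes called up in aged impaired against young samples, where 1.03% of all probe sets rose. H2-K1, a heavy chain, rose by 0.83 ± 0.15 or 1.78-fold (adjusted p = 0.00689), H2-D1, another heavy chain, by 0.83 ± 0.19 (adjusted p = 0.0313), and B2m, the light chain they share, by 0.60 ± 0.14 (adjusted p = 0.0352). The median of the 10 was 0.39. In aged unimpaired against young samples 0 of 10 were called, where 0.111% of all probe sets rose, with H2-K1 at 0.62 ± 0.15, B2m at 0.60 ± 0.14 and H2-D1 at 0.58 ± 0.19 (adjusted p = 0.138, 0.119 and 0.353). Both aged groups together against young had the same 3 called (limma adjusted p = 0.00833 for H2-K1, 0.0209 for B2m and 0.0462 for H2-D1). There 0.947% of all probe sets were called. Between the aged groups 0 of 10 were, against 0.0111% of all probe sets. H2-K1 was at 0.21 ± 0.15 there, H2-D1 at 0.25 ± 0.19 and B2m at 0.00 ± 0.14. Class I and class II genes were not tested against each other. In aged impaired against young samples, the calls of H2-D1 and B2m ended under 9 and 10 of 21 alternatives. Their highest adjusted p were 0.0778 without aged impaired replicate 6 and 0.0792 without young replicate 6, and the call of H2-K1 held under all 21. For both aged groups together, the calls of H2-D1 and B2m ended under 18 and 3 of 26 alternatives, and that of H2-K1 held under all 26. Probes of class I genes, on an x suffix here for H2-K1 and H2-D1, can match related class I transcripts.

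**Figure D2:**
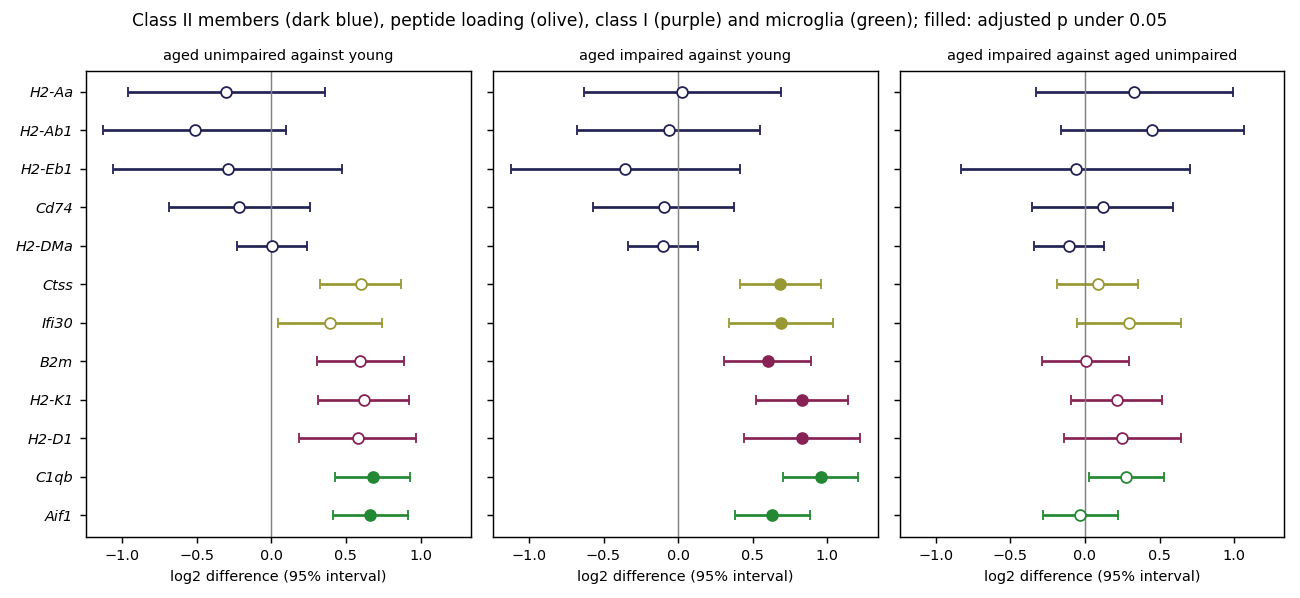
Log2 differences with their 95% intervals for 5 class II genes, 2 peptide loading genes, 3 class I genes and 2 microglia genes in 3 comparisons; a filled point has a limma adjusted p under 0.05. Every interval of a class II gene crosses 0, while Ctss, Ifi30, B2m, H2-K1, H2-D1, C1qb and Aif1 are filled in aged impaired against young.

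On their brightest probe sets, most class II genes varied widely among samples of the same group. The SD within groups was 0.585 for H2-Aa, 0.542 for H2-Ab1, 0.682 for H2-Eb1 and 0.415 for Cd74, against a median of 0.218 over all tested probe sets. These lie at percentiles 98.5, 95.5, 97.1 and 95.6 among probe sets of similar mean. H2-DMa, at 0.195, lay at percentile 52.6. The other tested probe sets of H2-Aa lay at percentiles 99.5 (1438858_x_at) and 68.5 (1452431_s_at), and that of H2-Ab1 (1451721_a_at) at 73.6, so the wide spread was not seen on every probe set. These percentiles describe the arrays and were not tested.

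Choroid plexus markers split the arrays, and the split followed the class II order in part. The mean of 17 genes lay between 6.73 and 7.38 in 5 arrays, which were aged unimpaired replicates 3, 4 and 5, aged impaired replicate 5 and young replicate 6, and between 8.43 and 10.23 in the other 13. Of these, aged impaired replicate 5, aged unimpaired replicate 3 and aged unimpaired replicate 4 held the 3 lowest values of H2-Aa (7.41, 7.52 and 6.87), of Cd74 (7.66, 7.87 and 7.62) and of H2-Eb1 (5.14, 6.29 and 6.00). They were also the 3 lowest arrays for border macrophage genes (6.53, 6.64 and 6.71). Of the 5 arrays, 4 were among the 5 lowest for H2-Aa and for Ciita, 3 for Cd74, H2-Eb1 and H2-Ab1, and 2 for H2-DMa. The medians of the 5 and the 13 arrays were 7.52 and 8.25 for H2-Aa, 7.87 and 8.54 for Cd74, 6.29 and 7.18 for H2-Eb1, 7.07 and 7.51 for H2-Ab1, 4.35 and 5.85 for Ciita and 8.75 and 8.81 for H2-DMa. The split was drawn from the data and spans the groups, so these are descriptions with no test.

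Aged unimpaired replicate 5 was an exception among the 5, with a border macrophage mean of 7.48 and an H2-Aa value of 8.74, the third highest of all. Within the 13 arrays of high signal, 0 of 6 class II genes correlated with the choroid plexus mean past the threshold by r. The highest was H2-Ab1 at 0.605 (permutation test, adjusted p = 0.0645), and by rank it passed (rho = 0.808, adjusted p = 0.0079). With the choroid plexus mean as a covariate in limma, 0 member probe sets were called in any comparison. The part of choroid plexus tissue in the class II values was not tested.

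**Figure D3:**
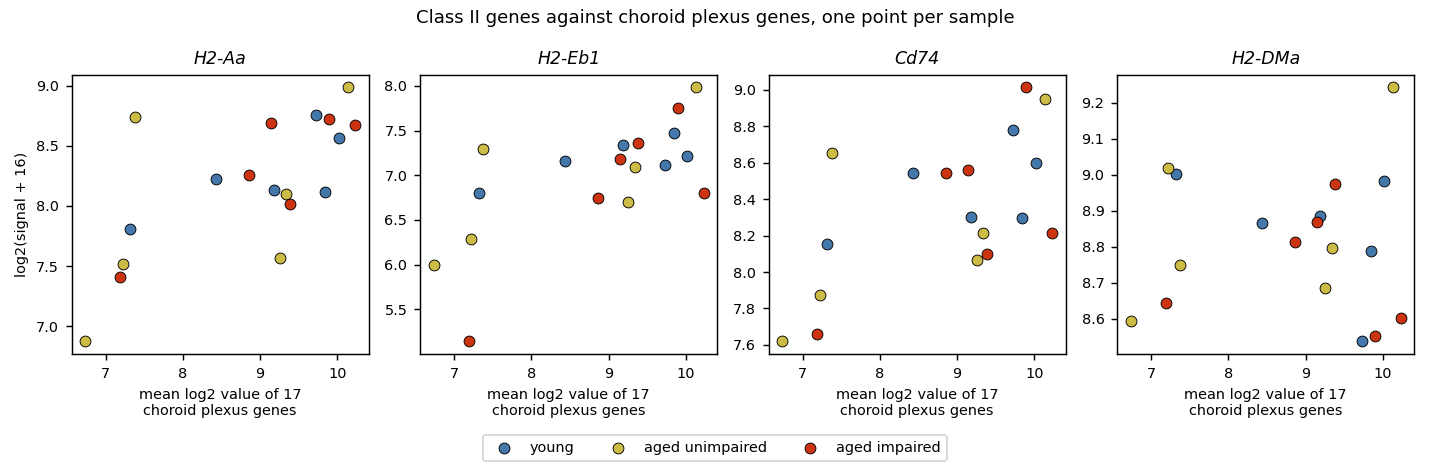
H2-Aa, H2-Eb1, Cd74 and H2-DMa, as log2(signal + 16), against the mean log2 value of 17 choroid plexus genes, 1 point per sample. The 5 arrays between 6.73 and 7.38 on the horizontal axis include the 3 lowest values of H2-Aa, H2-Eb1 and Cd74.

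Over all 18 samples, much of this variation ran in parallel among the members other than H2-DMa. H2-Aa and Cd74 correlated over the 18 samples at r = 0.909 and rho = 0.936 (permutation test, p = 1e-05, the smallest the permutations can give, adjusted p = 0.00015 over 15 pairs). Without the 2 samples farthest out, aged unimpaired replicates 4 and 6, r was 0.868, and with group means taken away it was 0.913. H2-Eb1 and Cd74 correlated at r = 0.817 (rho = 0.721, adjusted p = 0.000225), H2-Aa and H2-Eb1 at 0.759 (rho = 0.657, adjusted p = 0.0012), and H2-Aa and H2-Ab1, which form 1 molecule, at 0.739 (rho = 0.643, adjusted p = 0.00165). Without their 2 farthest samples these were 0.715, 0.668 and 0.600. Within the 13 arrays of high choroid plexus signal, H2-Aa correlated with Cd74 at r = 0.798 (rho = 0.852, permutation test, adjusted p = 0.0171) and with H2-Ab1 at 0.717 (rho = 0.626, adjusted p = 0.0367; by rank 0.19), and without the 2 farthest samples these were 0.689 and 0.445. The other 13 of the 15 pairs did not pass there, among them H2-Eb1 with Cd74 at 0.591 (adjusted p = 0.146) and with H2-Aa at 0.484 (adjusted p = 0.233). Fewer samples also make it harder for a pair to pass, so the loss of these calls and the lower r are given side by side.

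The dim probe sets of Ciita did not follow each other closely. Its brightest, 1421210_at, correlated with 1447075_at at r = 0.272 and with 1421211_a_at at -0.139. On 1421210_at alone, which was below the filter, Ciita moved with its targets in part. It correlated with H2-Eb1 at r = 0.724 (rho = 0.659, adjusted p = 0.00165; 0.513 without aged impaired replicate 5 and aged unimpaired replicate 4). With H2-Aa it was 0.629 (adjusted p = 0.0115) and with Cd74 0.547 (adjusted p = 0.0362), but by rank these were 0.393 and 0.399 and did not pass (adjusted p = 0.161 for both). Without their 2 farthest samples r was 0.452 and 0.406, so these relations rest in part on those samples. Within the 13 arrays of high choroid plexus signal, Ciita correlated with H2-Eb1 at 0.539 (adjusted p = 0.17), with H2-Aa at 0.272 (adjusted p = 0.612) and with Cd74 at 0.084 (adjusted p = 0.882). With H2-Ab1 r over all 18 was 0.467 (adjusted p = 0.0754). In all, over 18 samples, 8 of the 10 pairs without H2-DMa passed by r, with r from 0.467 to 0.909 over the 10, and 0 of the 5 pairs with H2-DMa did, with r from 0.037 to 0.340. The values come from the same arrays and scaling, which all pairs share.

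**Figure D4:**
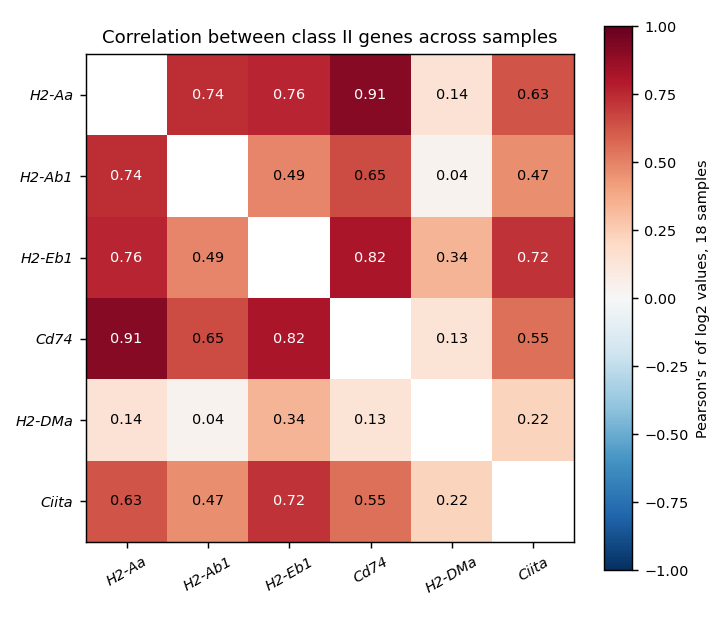
Pearson's r between the brightest probe sets of the 6 class II genes over 18 samples, 1 cell per pair. The highest is 0.91 for H2-Aa and Cd74, and the row of H2-DMa holds the 5 lowest values, 0.04 to 0.34.

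Class II signal was high in samples with high signal of border macrophage genes, which mark the macrophages of the meninges, vessels and choroid plexus. The mean of their 8 tested marker genes (Mrc1, Ms4a7, Pf4, Dab2, Stab1, Cbr2, F13a1 and Folr2, of 11 listed) lay between 6.95 and 7.75 in young, 6.64 and 7.52 in aged unimpaired and 6.53 and 7.45 in aged impaired samples. It correlated with H2-Aa at r = 0.859 (rho = 0.878, permutation test p = 1e-05, the smallest the permutations can give, adjusted p = 0.0003 over 30 relations). For Cd74 r was 0.769, for H2-Eb1 0.749, for Ciita 0.659 and for H2-Ab1 0.590, with adjusted p of 0.00105, 0.00105, 0.0113 and 0.0271 and rho of 0.814, 0.713, 0.569 and 0.606. For H2-DMa r was -0.00017. Without aged impaired replicate 5 and young replicate 3, the 2 samples farthest out, r with H2-Aa was 0.844 and with Cd74 0.688. Within the 13 arrays of high choroid plexus signal, 1 of 6 genes passed, H2-Aa at 0.754 (rho = 0.753, permutation test, adjusted p = 0.0401 over 12 relations), while Cd74 was at 0.498 (adjusted p = 0.113), H2-Eb1 at 0.412 (adjusted p = 0.192), H2-Ab1 at 0.548 (adjusted p = 0.102) and Ciita at 0.600 (adjusted p = 0.0918). Cd163, Lyve1 and Clec10a, the other listed markers, were on the array and below the filter. They were at 0 in no sample, which does not show that they were detected.

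Markers of meninges and fibroblasts moved with class II in a like way. The mean of 12 genes lay between 8.78 and 9.48 in young, 8.14 and 9.20 in aged unimpaired and 8.21 and 9.14 in aged impaired samples. It correlated with H2-Aa at r = 0.791, with Cd74 at 0.784, with H2-Eb1 at 0.777, with H2-Ab1 at 0.714 and with Ciita at 0.708, all past the threshold (adjusted p at most 0.00435, rho from 0.666 to 0.705), and with H2-DMa at 0.106. Without aged unimpaired replicate 4 and young replicate 3 the first 5 were 0.612 to 0.803. Within the 13 arrays of high choroid plexus signal 0 of 6 passed, with r from 0.501 to 0.655 for the first 5 and adjusted p of at least 0.0818. The part of such cells in the class II values was not tested. The mean of border macrophage genes did not pass between groups (exact permutation test, 2-sided, adjusted p = 0.736 for aged unimpaired against young and 0.871 for the other comparisons), and that of the meninges list was 0.51 lower in aged unimpaired than in young samples with an adjusted p of 0.0779.

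**Figure D5:**
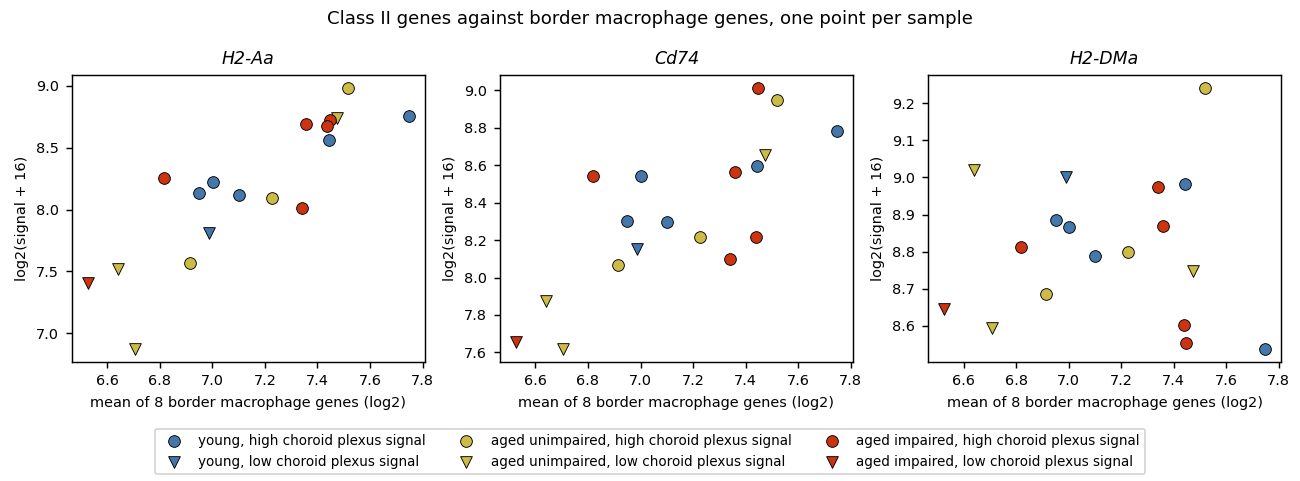
H2-Aa, Cd74 and H2-DMa, as log2(signal + 16), against the mean log2 value of 8 border macrophage genes, 1 point per sample; triangles are the 5 arrays with low choroid plexus signal. H2-Aa and Cd74 are high where border macrophage genes are high (r = 0.859 and 0.769), and H2-DMa is not (r = -0.00017).

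Most markers of lymphocytes did not pass the filter. Of 8 B cell markers on the array 7 were below the filter, among them Cd79a at 4.17 to 6.37 and Ms4a1 at 4.27 to 6.06, and of 9 T cell markers 8 were, among them Cd3e at 4.46 to 6.61 and Cd4 at 4.44 to 4.95. None was at 0 in any sample, which does not show that they were detected, since detection calls were not used. Among dendritic cell markers, 0 of 8 tested genes were called in any comparison, and Xcr1 and Ccr7 were below the filter. At most 1.63% of all probe sets tested were called in a comparison, so 0 of 8 lies near the background. The lowest p of the 8 in aged impaired against young samples belonged to Itgax (1.23 ± 0.36, limma adjusted p = 0.0984). Hippocampal neurons, astrocytes and oligodendrocytes were plainly present, with marker means of 10.92 to 11.38, 12.47 to 12.85 and 11.89 to 12.61.

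Several microglia genes rose in aged samples. Of 14 tested markers, 7 rose in aged impaired against young samples (C1qa, C1qb, C1qc, Tyrobp, Trem2, Aif1 and Csf1r) and 2, C1qb and Aif1, in aged unimpaired against young samples, where 1.03% and 0.111% of all probe sets rose. C1qb, a chain of complement C1q, rose by 0.95 ± 0.12 and 0.68 ± 0.12 (adjusted p = 0.000421 and 0.0311), though the second call ended under 9 of 21 alternatives, the highest adjusted p being 0.0995 under the sample-number block. The call of Aif1, a calcium-binding protein of microglia, in aged unimpaired against young samples (0.66 ± 0.12, adjusted p = 0.0330) ended under 10 of 21, with a highest adjusted p of 0.103 in the fit of only these groups. The mean of the 14 genes was 0.54 higher in aged impaired and 0.41 higher in aged unimpaired than in young samples (exact permutation test, 2-sided, p = 0.00216, the smallest that 6 against 6 allow, adjusted p = 0.013 for both). Since microglia levels separated the ages, correlations with class II were taken within ages. Fewer samples make it harder to pass than over the 18 samples used for border macrophage genes, so the counts that passed are not comparable. Over the 6 genes, r ran from 0.336 to 0.658 in aged and from -0.313 to 0.937 in young samples. For H2-Aa it was 0.581 and 0.811, and 0.340 and 0.680 without the 2 farthest samples. Among the 12 aged samples 0 of 6 genes passed (Cd74 came nearest, r = 0.658, adjusted p = 0.0544, and 0.227 without aged impaired replicate 2 and aged unimpaired replicate 6). Among the 6 young samples 1 did, H2-Ab1, at r = 0.937 (exact permutation p = 0.00694, adjusted p = 0.0208; 0.908 without young replicates 4 and 6).

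The genes whose pattern was most like class II were found by Pearson's r with the mean of the 5 tested members over 18 samples, among 13116 other genes. Mxra8, an adhesion protein of the immunoglobulin family, led at r = 0.890, before Slc13a4, a sulfate transporter that was also among the choroid plexus markers, at 0.870, Lamtor2, a lysosomal scaffold of mTORC1 signalling, at 0.866, and Ptgis, prostacyclin synthase, at 0.861. Tspan9, Shc1, Tmem216, Bmp6, Slc6a20a and Gpx8 followed, down to 0.827. With group means taken away, Mxra8 led again at 0.901, and Tmem86a, Fxyd1, Lamtor2, Cpxm2, Pcbd2, Slc13a4, Igfbp6, H1f2 and Bmp6 completed the 10 highest. Both sets of 10 held Mxra8, Slc13a4, Lamtor2 and Bmp6. These are descriptions over 18 samples, and no test was made of them.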

How the data were processed

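Expression was measured in 18 mouse hippocampus samples on 1 array each. The authors deposited 1 linear intensity per probe set, a step done in MAS5 according to the notes that the submitters gave on processing. The 2%-trimmed mean of every array was 150 in that table. No software version or setting is given in the sources used here, and detection calls were not used. Arrays have no read depth, so their number limits the precision. The median standard error of a difference was 0.124.

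Arrays were rescaled to a trimmed mean of 500 before 16 was added and log2 was taken. Left out were 64 controls and, of the rest, the 40% with the lowest mean; 27022 probe sets with a mean above 5.92 were tested. Gene names came from the platform annotation (34945 probe sets with 1 symbol, 932 with several, 9160 with none), updated through a RefSeq table, in which 34741 of those with 1 symbol matched. A gene in a list stands for its tested probe set of highest mean.

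Group means of all 18 samples were fitted with limma 3.58.1 (R 4.3.3) under empirical Bayes moderation. Tests were 2-sided, with Benjamini-Hochberg adjustment over all probe sets tested, and a call was an adjusted p under 0.05. The fit was tested on simulated data. Single values per sample were compared by exact permutation in Python 3.11.15 with numpy 2.4.6, and correlations by permutation with 100000 draws (exact for 6 samples). Errors after ± are standard errors unless an SD is named.

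The members, the lists and the tests were chosen with earlier results of these data known. Named genes were all member probe sets, up to 4 genes of lowest p and those called from each pathway list, and the 10 genes most like the class II mean. The alternatives changed the normalization (quantile), the offset (1 or 64), the filter (none or 60%), the moderation (trended and robust), the design (sample number as a block, choroid plexus covariate, only the compared groups), the probe sets (their mean per gene) and the samples (each left out in turn). Correlations within the 13 arrays of high choroid plexus signal were added after seeing the data.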

Additional observations from a re-analysis of the deposited data

Results flagged for a closer look

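In 42 sets of 6 values (14 probe sets in 3 groups), 2 had a sample far from the others, about what chance gives, since chance sets 1 in 20 apart. Aged impaired replicate 2 stood high at 5.43 on the dim second probe set of H2-DMa, 1459872_x_at, where the next sample was at 4.74. Aged impaired replicate 4 stood high at 4.79 on the dim Ciita probe set 1421211_a_at, where the next was at 4.44. Both probe sets were below the filter and near a signal of 0, and neither was called in any comparison.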

How the results depend on the processing

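In every alternative run, 0 member probe sets were called in each of the 4 comparisons. For the 8 tested member probe sets, the lowest limma adjusted p over the alternatives was 0.489 for aged impaired against aged unimpaired and 0.502 for aged unimpaired against young. It was 0.360 for aged impaired against young and 0.256 for both aged groups against young. In the fit without a filter, the dim Ciita probe set 1447075_at had a lower one for aged impaired against young, 0.275. Over all probe sets the counts of calls in these comparisons were 3, 37, 440 and 256. They were 0, 17, 240 and 141 with the sample number as a replicate block, 2, 13, 193 and 131 without a filter, 6, 50, 565 and 271 with a filter of 60%, and 9, 58, 588 and 322 with trended and robust moderation. The fit of only the groups compared gave 0, 22 and 241 in the first 3. With a choroid plexus covariate they were 3, 54, 539 and 310. Leaving out 1 sample gave 2 to 4, 16 to 33, 228 to 418 and 116 to 274. The sample numbers did not pair the samples: deviations of same-numbered samples correlated at -0.25 to 0.0957 over 18 pairs, and 0 of 18 samples correlated best with its own number.

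Several uncalled differences changed sign, and the cause was not tested. In the main fit they included 0.26 ± 0.50 for H2-Aa 1438858_x_at between the aged groups. Another was -0.29 ± 0.36 for H2-Eb1 in aged unimpaired against young samples. Between the aged groups, the choroid plexus covariate gave -0.22 for H2-Aa 1438858_x_at, -0.060 for H2-Ab1 1451721_a_at and -0.043 for Cd74, and leaving out 1 sample gave -0.069 to 0.52, -0.063 to 0.29 and -0.015 to 0.26 for them and -0.25 to 0.28 for H2-Eb1. For aged unimpaired against young, the covariate gave 0.055 for H2-Aa 1452431_s_at, 0.18 for H2-Ab1 1451721_a_at and 0.018 for H2-Eb1, quantile normalization gave 0.058 for H2-Ab1 1451721_a_at, and leaving out 1 sample gave -0.23 to 0.032 for H2-Aa 1452431_s_at, -0.17 to 0.19 for H2-Ab1 1451721_a_at and -0.074 to 0.055 for H2-DMa. For aged impaired against young, leaving out 1 sample gave -0.063 to 0.21 for H2-Aa 1435290_x_at, -0.19 to 0.079 for H2-Ab1 1450648_s_at, -0.015 to 0.29 for H2-Ab1 1451721_a_at and -0.23 to 0.041 for Cd74, and the mean of all tested probe sets gave 0.034 for H2-Ab1. For both aged groups against young, leaving out 1 sample gave -0.043 to 0.17 for H2-Aa 1452431_s_at and -0.091 to 0.22 for H2-Ab1 1451721_a_at, and the mean of probe sets gave 0.15 for H2-Aa. Within the 13 arrays of high choroid plexus signal, r was -0.037 for H2-Ab1 with H2-DMa and -0.034 for the meninges list with H2-DMa, both near 0 over all 18 as well. Signal over background limits what can be said of Ciita, whose probe sets were all below the filter.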
